A study of Mus musculus with 2 samples.

Results

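The genes of glycolysis and a panel of classical targets of the hypoxia-inducible factors (HIFs) were examined in cortical tissue of WT mice and P4H-TM KO littermates. The set was named by gene symbol and holds 39 genes in 4 role groups. These are 17 glycolytic enzymes, 4 glucose and lactate transporters, 3 regulators of glycolytic flux and 15 HIF targets outside glucose metabolism. Of the 39 genes, 35 were measured on the arrays, among 18194 genes in all. The mice were naive males of the C57BL/6J strain aged 2.5 months, and the KO animals lack functional P4h-tm, a prolyl 4-hydroxylase of the endoplasmic reticulum membrane. RNA of 4 mice was pooled per genotype and hybridized to 1 Affymetrix mouse genome array per genotype, so 2 arrays stand for 8 mice. Since each genotype has a single array, differences could not be checked against replicates and no test was possible. The tissue was whole cortex with all its cell types, and pooling hides the spread between mice. How the P4h-tm allele was disrupted is not given in the sources used here.

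Cells adapt gene expression to low oxygen through the HIFs. While oxygen is plentiful, prolyl hydroxylases mark the α subunit (HIFα) for degradation, and when they are inactive HIF accumulates and binds hypoxia response elements near its target genes. Those targets include most steps of glycolysis, the glucose transporter genes, the kinase that restrains pyruvate entry into mitochondria, and genes for angiogenesis, mitophagy, pH control and iron uptake. Since P4H-TM can act on HIFα, the comparison asks whether mRNA levels of these targets differ between WT and P4H-TM KO cortex, and whether the glycolytic enzymes and the non-metabolic targets differ alike.

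The core of the hypoxia response element is written ACGTG or GCGTG. Both words were searched on both strands in the 250 bases before each RefSeq transcription start of the GRCm38.p6 assembly, and the palindrome CACGTG counts on each strand. Windows were found for 35 of the 39 genes, which are not the same 35 genes as those measured, and 31 of them (88.6%) had a match in at least 1 window, against 7750 of 14453 genes measured on the arrays that have windows (53.6%). By window, of which genes with several starts have more, the shares were 75.9% of 54 and 48.9% of 18110. The words are short and occur in many promoters, the members were named as glycolysis genes or HIF targets, and a match is not a binding site. The windows printed here belong to 2 genes with several matches whose levels were nearly equal in both genotypes, Ldha (chr7:46845554-46845803, plus strand, the first of its windows, 5 matches) and Bnip3 (chr7:138909507-138909756, minus strand, 5 matches). They also belong to 3 genes with lower values in P4H-TM KO, Slc2a1 (chr4:119108495-119108744, plus strand, 2 matches), Ankrd37 (chr8:45999851-46000100, minus strand, 4 matches) and Car9 (chr4:43506776-43507025, plus strand, 1 match), and to the gene with the highest difference, Car12 (chr9:66713436-66713685, plus strand, 0 matches). Sequences run 5′ to 3′ on the strand of the gene, with matches in capitals.
Ldha: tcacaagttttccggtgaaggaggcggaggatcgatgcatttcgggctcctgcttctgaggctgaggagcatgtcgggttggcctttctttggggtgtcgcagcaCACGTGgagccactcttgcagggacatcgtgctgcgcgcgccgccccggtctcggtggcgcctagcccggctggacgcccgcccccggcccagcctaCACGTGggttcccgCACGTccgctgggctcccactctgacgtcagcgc
Bnip3: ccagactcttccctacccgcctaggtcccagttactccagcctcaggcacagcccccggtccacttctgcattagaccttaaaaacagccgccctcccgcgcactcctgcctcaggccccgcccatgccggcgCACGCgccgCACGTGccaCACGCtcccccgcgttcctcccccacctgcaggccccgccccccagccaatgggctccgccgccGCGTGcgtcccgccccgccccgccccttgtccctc
Slc2a1: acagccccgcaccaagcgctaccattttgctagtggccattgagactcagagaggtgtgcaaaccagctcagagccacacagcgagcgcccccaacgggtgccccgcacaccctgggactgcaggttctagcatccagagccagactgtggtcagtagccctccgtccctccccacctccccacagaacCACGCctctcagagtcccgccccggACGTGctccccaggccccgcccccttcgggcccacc
Ankrd37: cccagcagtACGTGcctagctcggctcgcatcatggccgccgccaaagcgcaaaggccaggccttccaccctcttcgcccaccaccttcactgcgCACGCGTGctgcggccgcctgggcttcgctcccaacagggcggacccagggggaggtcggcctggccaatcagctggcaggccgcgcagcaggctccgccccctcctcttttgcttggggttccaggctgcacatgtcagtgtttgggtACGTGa
Car9: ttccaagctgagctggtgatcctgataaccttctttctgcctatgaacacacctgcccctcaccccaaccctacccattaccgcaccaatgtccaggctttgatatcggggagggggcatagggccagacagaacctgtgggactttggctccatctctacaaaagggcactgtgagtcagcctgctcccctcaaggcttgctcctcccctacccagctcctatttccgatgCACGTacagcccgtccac
Car12: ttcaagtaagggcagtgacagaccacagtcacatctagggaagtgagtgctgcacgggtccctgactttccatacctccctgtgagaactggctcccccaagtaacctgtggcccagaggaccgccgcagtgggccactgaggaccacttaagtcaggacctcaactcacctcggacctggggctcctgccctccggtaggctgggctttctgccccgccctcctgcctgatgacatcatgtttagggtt

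Values are log2 expression as deposited by the authors, and 1 value per gene was taken, that of the brightest probe set by the mean over both arrays. P4htm, the targeted gene, had 11.05 in WT against 9.10 in P4H-TM KO, a difference of −1.95, and −1.64 on its other probe set. Whether these probe sets lie in the disrupted part of the gene is not known here. The labelled tissue expressed all 11 measured cortical neuron markers above the median of all probe sets (6.385, used as a signal filter), with a median difference of −0.03. Markers of other cell types, and immediate early genes, which mark no cell type, differed between the pools. Choroid plexus markers were higher in P4H-TM KO for 13 of 13 genes (median 1.58), meninges markers for 15 of 15 (median 0.41) and immediate early genes for 12 of 12 (median 0.395), whereas oligodendrocyte markers were lower for 13 of 13 (median −0.25). In bulk tissue, fewer cells of a type and less RNA per cell cannot be told apart. As a check of RNA quality, the control probe sets at the 3′ end of Gapdh exceeded those at the 5′ end by 0.38 in WT against 0.35 in P4H-TM KO, and those of Actb by 0.85 and 0.82. The same measure was −1.31 and −1.17 for the Tfrc controls, which were below the filter, and 3.20 and 3.30 for those of Pcx, so it changed by −0.03 for Gapdh and Actb, 0.14 for Tfrc and 0.10 for Pcx. Among genes with several probe sets above the filter (5103), differences of probe sets of the same gene scattered with a pooled SD of 0.101. It measures how far probe sets disagree within these 2 arrays, and carries no information on variation between animals.

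Differences of the whole set were small. Of the 35 measured genes, 22 had higher, 11 lower and 2 equal values in P4H-TM KO, while 46.0% of all genes were higher and 49.0% lower. The median difference was 0.03 on the log2 scale over the set and 0.00 over all genes. No member was at least 1.5-fold higher or lower, against 0.610% and 0.148% of all genes. At a threshold of 1.2-fold (0.263 on the log2 scale) Car12 was higher, 1 of 35 against 4.12% of all genes, and Car9, Ankrd37 and Slc16a3 were lower, 3 of 35 against 4.91%. Of these 4 genes, Car9 and Slc16a3 were below the signal filter, and the counts are too small to set the set apart from all genes.

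**Figure D1:**
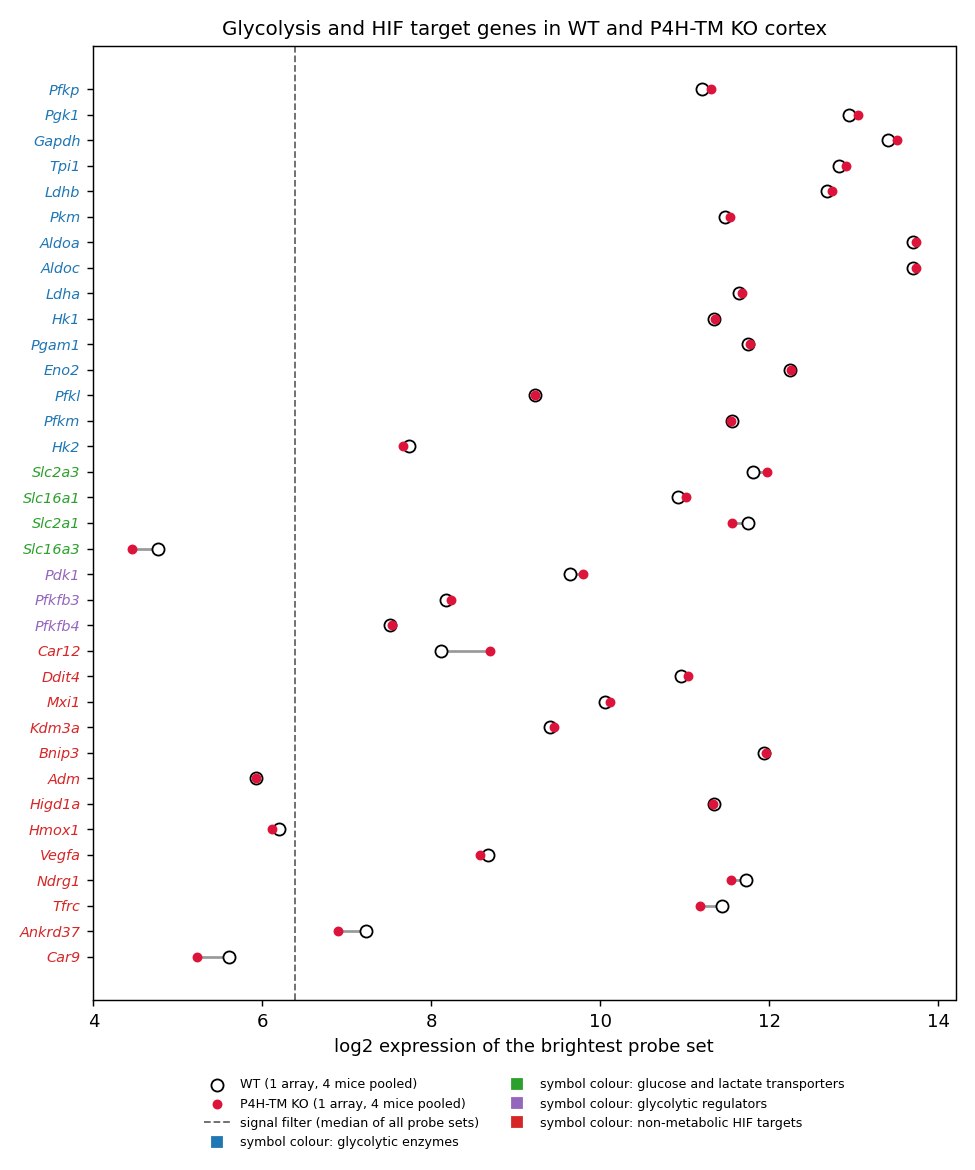
Log2 expression of the 35 measured genes on the brightest probe set, in the WT array (open circles) and the P4H-TM KO array (red points), with symbols coloured by role group and the signal filter of 6.385 drawn dashed. There is 1 array per genotype and so no error bar. The circles of most genes overlap, and the widest gap is that of Car12, from 8.12 (WT) to 8.69 (KO).

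The glycolytic enzymes had nearly the same values in both genotypes. Of 17 enzyme genes 15 were measured, all above the signal filter, and their differences ran from −0.07 to 0.11 with a median of 0.04. Values were higher in P4H-TM KO for 12 genes, lower for 2 and equal for 1, and 11 were higher with the arrays centred on their medians. Among the 9027 genes with a mean signal in the range of the enzymes (7.695 to 13.72), 4595 were higher and 3994 lower, with a median of 0.01. Only Pfkp and Pgk1, both at 0.11, exceeded the pooled SD between probe sets. This is 13.3% of the enzymes and was the case for 25.2% of genes in that signal range. The enzymes were brighter, with a WT median of 11.75 against 9.54, so the 2 shares are not matched for signal.

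Hexokinases trap glucose in the cell as its phosphate. Hk1, the main brain isoform, had 11.34 in WT against 11.36 in P4H-TM KO, a difference of 0.02 that was 0.07 on its other probe set. Hk2, the isoform with stronger HIF control, had 7.73 and 7.66, a difference of −0.07 and the lowest of the enzymes. The difference of Hk1 minus that of Hk2 was 0.09, less than the pooled SD.

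The phosphofructokinases catalyse the committed step of the pathway. Pfkl and Pfkm, the liver and muscle isoforms, were flat, with 9.23 on both arrays and with 11.56 in WT against 11.55 in P4H-TM KO. Pfkp, the platelet isoform, had 11.20 in WT against 11.31 in P4H-TM KO, a difference of 0.11. Its probe sets did not share a direction: the others differed by −0.31 above the filter and 0.21 below it, and all 3 averaged 0.0033. The Pfkp difference therefore depends on the probe set chosen.

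Aldolases split the sugar into trioses, and triose-phosphate isomerase interconverts them. Aldoa had 13.70 in WT against 13.74 in P4H-TM KO, a difference of 0.04, and its 5 probe sets spanned −0.09 to 0.04. Aldoc, which in the brain is enriched in astrocytes, also had 13.70 and 13.74 on its brighter probe set and differed by −0.06 on the other. Astrocyte markers had a median of −0.06 and ran from −0.23 to 0.04, and their part in the values of Aldoc was not tested. Tpi1 had 12.82 in WT against 12.91 in P4H-TM KO, a difference of 0.09, but another probe set of the same mean signal differed by 0.01 and the dimmest by −0.04. None of these genes had a direction shared by all its probe sets.

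The payoff phase of glycolysis yields ATP and pyruvate. Gapdh, the dehydrogenase of the triose step, is represented here by control probe sets of the array along its 3′ end, middle and 5′ end. It had 13.41 in WT against 13.51 in P4H-TM KO at the 3′ end, and the 3 positions differed by 0.10, 0.14 and 0.13. Actb, the other usual reference gene with such controls, differed by −0.06, −0.06 and −0.03 at the same positions. Gapdh and Actb thus lay on opposite sides of 0.

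Pgk1, phosphoglycerate kinase, had 12.94 in WT against 13.05 in P4H-TM KO. Its brightest probe set, of a kind that can match other transcripts, thus differed by 0.11, and the others by −0.02 and 0.05. Pgam1, the mutase of the next step, had 11.75 and 11.77. Eno2, the neuronal enolase, had 12.25 and 12.26. These steps differed by 0.11, 0.02 and 0.01.

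Pkm, the pyruvate kinase of brain, had 11.48 in WT against 11.53 in P4H-TM KO, a difference of 0.05. It lies on chromosome 9, as does P4htm, as the 382nd measured gene from it. Ldha, the lactate dehydrogenase subunit that favours lactate production and whose promoter window above holds 5 matches, had 11.64 and 11.68, a difference of 0.04. Ldhb, the subunit that favours pyruvate, had 12.68 and 12.74, a difference of 0.06, with its 4 probe sets between −0.04 and 0.07. The difference of Ldha minus that of Ldhb was −0.02, so the subunits of lactate dehydrogenase moved apart by less than the pooled SD. Gpi1 and Eno1 were not measured, since no probe set carries their symbol in the annotation used here.

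The 2 glucose transporter genes had larger differences than the enzymes, in opposite directions. Slc2a1 encodes GLUT1, the glucose transporter of the blood-brain barrier and astrocytes, and had 11.75 in WT against 11.56 in P4H-TM KO, a difference of −0.19 or 1.14-fold lower. All 3 of its probe sets were lower, with differences from −0.20 to −0.08, and it ranked 1750 from the lowest of 18194 genes. Slc2a3 encodes GLUT3, the neuronal glucose transporter, and had 11.81 in WT against 11.97 in P4H-TM KO, a difference of 0.16 or 1.12-fold higher. It ranked 1833 from the highest of 18194 genes. Of its 4 probe sets 3 were higher, by 0.16, 0.18 and 0.30, and 1 was equal. The equal probe set and that at 0.30 were below the filter. Those at 0.16 and 0.18 are of a kind that can match other transcripts. The 2 glucose transporter genes thus differed in opposite directions, with −0.35 between them on the log2 scale (Slc2a1 minus Slc2a3). Each exceeded the pooled SD between probe sets, as did 38.1% of genes in the signal range of the transporters. Those genes had a WT median of 8.12, against 11.335 for the transporters.

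Slc16a1 encodes MCT1, a lactate transporter of endothelial cells and glia, and had 10.92 in WT against 11.01 in P4H-TM KO, a difference of 0.09 on its brighter probe set and 0.23 on one below the filter. Slc16a3 encodes MCT4, the lactate exporter of glycolytic cells, and had 4.77 and 4.46, a difference of −0.31 on a single probe set. That level is below the signal filter on both arrays. Endothelial markers, the nearest measure of the vessel cells that carry GLUT1 and MCT1, were higher for 8, lower for 2 and equal for 2 of 12 measured genes, with a median of 0.06, levels from 6.06 to 11.72 in WT and from 6.03 to 11.72 in P4H-TM KO. Astrocyte markers were lower for 11 of 13 genes, with a median of −0.06, levels from 8.64 to 14.17 in WT and from 8.58 to 14.16 in P4H-TM KO. Larger differences were seen for choroid plexus markers, higher for 13 of 13 genes (median 1.58). Oligodendrocyte markers were lower for 13 of 13 genes (median −0.25). The part of these cell types in the differences of Slc2a1 and Slc16a1 was not tested.

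The 3 regulators of glycolytic flux had differences from 0.03 to 0.16, and only that of Pdk1 exceeded the pooled SD, which 31.9% of genes in their signal range did. All 3 were above 0, as were 52.3% of genes in their signal range. Pfkfb3 and Pfkfb4 make the allosteric activator of phosphofructokinase and are strongly induced by hypoxia. Pfkfb3 had 8.17 in WT against 8.23 in P4H-TM KO, a difference of 0.06, and 0.24 on a probe set below the filter. Pfkfb4 had 7.51 and 7.54, a difference of 0.03. Pfkfb4 lies on chromosome 9 as the 12th measured gene from P4htm in the gene order of GRCm38.p6, and its values were almost equal.

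Pdk1 encodes a kinase that inhibits pyruvate dehydrogenase and so diverts pyruvate from mitochondria. It had 9.64 in WT against 9.80 in P4H-TM KO, a difference of 0.16 or 1.12-fold. Its other probe sets differed by 0.04, 0.04 and −0.05, and the average over all 4 was 0.0475. The difference of Pdk1 is thus carried by its brightest probe set.

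**Figure D2:**
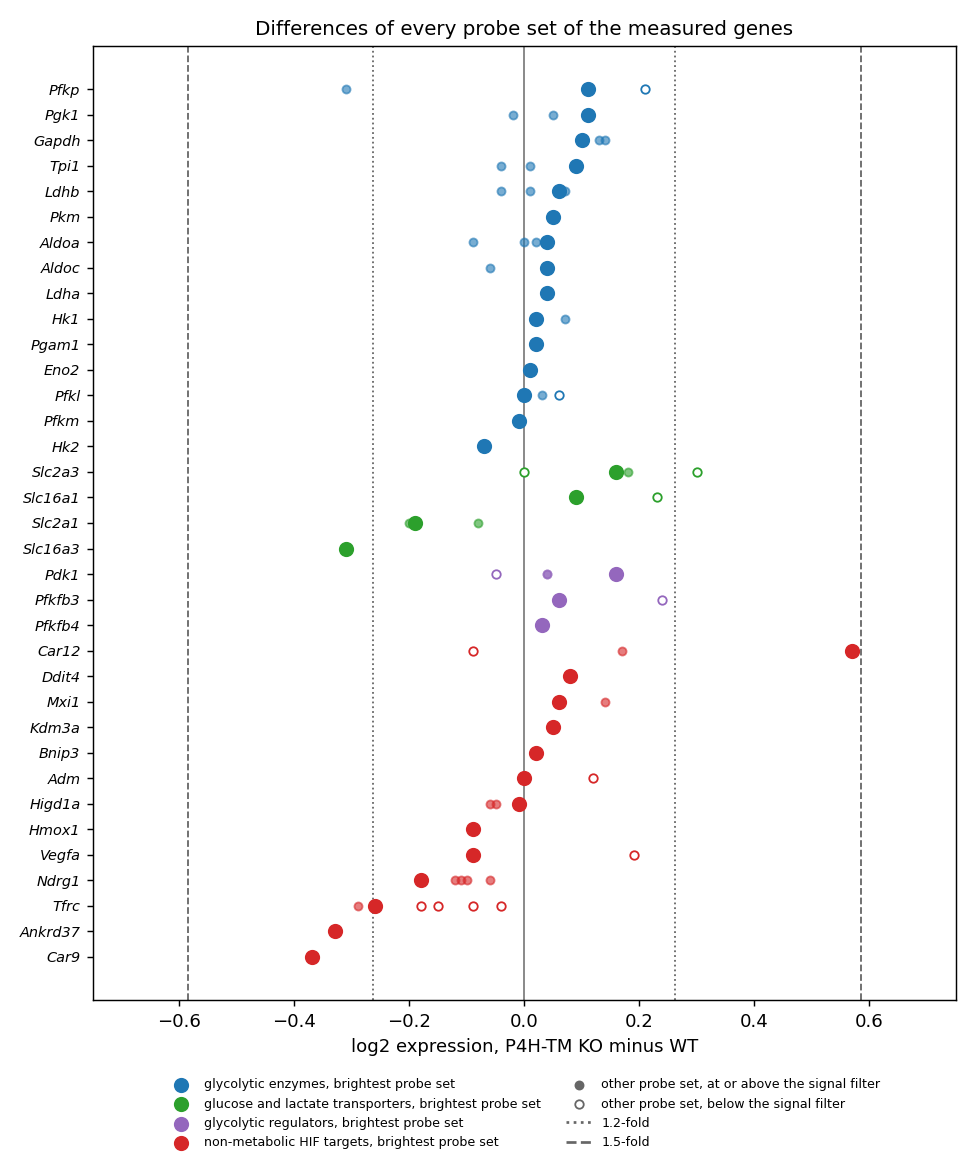
Difference in log2 expression, P4H-TM KO minus WT, of each of the 80 probe sets of the 35 measured genes, with large points for the probe set that represents the gene, small filled points for other probe sets at or above the signal filter and open points for those below it. Dotted and dashed lines mark 1.2-fold and 1.5-fold. The large points of the glycolytic enzymes lie between −0.07 and 0.11, while single probe sets of Pfkp reach −0.31 and 0.21. Every probe set lies below 0 for 4 genes (Slc2a1, Ndrg1, Tfrc and Higd1a) and above 0 for 5 (Hk1, Gapdh, Slc16a1, Pfkfb3 and Mxi1).

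The HIF targets outside glucose metabolism were more scattered than the enzymes, and without a shared direction. Of 15 genes 13 were measured and 10 of these were above the signal filter. Values were higher in P4H-TM KO for 5, lower for 7 and equal for 1, with a median of −0.01 and a range from −0.37 to 0.57. In their signal range, 48.6% of genes were higher. The enzyme median exceeded this one by 0.05, and when the probe sets of each gene were averaged both medians were 0.02. The pooled SD was exceeded by 5 of 13 genes (38.5%), against 35.1% of the 12947 genes in the same signal range, so the scatter was near that of other genes of similar signal.

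Car12, a membrane carbonic anhydrase of pH control, had the highest difference of the set. It had 8.12 in WT against 8.69 in P4H-TM KO, a difference of 0.57 or 1.48-fold higher, and ranked 118 from the highest of 18194 genes. Another probe set above the filter differed by 0.17, the dimmest, below it, by −0.09, and their average was 0.217. Car12 is also expressed in the choroid plexus, whose markers were higher in P4H-TM KO for 13 of 13 genes, with levels from 5.90 to 14.49 in WT and from 6.84 to 14.86 in P4H-TM KO. The part of that tissue in the Car12 difference was not tested. Car12 lies on chromosome 9 too, as the 313th measured gene from P4htm. Car9, its best known hypoxia-induced relative, had 5.60 in WT against 5.23 in P4H-TM KO, a difference of −0.37 on 1 probe set and the lowest of the set, at a level below the signal filter. With Car9 below the filter and the probe sets of Car12 in both directions, no contrast between these genes was drawn.

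Ankrd37, an ankyrin repeat gene known as a direct HIF target, had 7.23 in WT against 6.90 in P4H-TM KO, a difference of −0.33 or 1.26-fold lower. It has 1 probe set and ranked 437 from the lowest of all genes, and its promoter window above holds 4 matches. Among members above the filter it had the lowest difference.

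Tfrc encodes the transferrin receptor for iron uptake, which is controlled by HIF and, through its mRNA, by cellular iron. It had 11.44 in WT against 11.18 in P4H-TM KO, a difference of −0.26, just short of the 0.263 that 1.2-fold requires. With the arrays centred on their medians it was −0.27, and 4 members in place of 3 were then at least 1.2-fold lower. All 6 probe sets, including 3 array controls, were lower, and the 2 probe sets above the filter differed by −0.26 and −0.29. In the brain Tfrc is enriched in endothelial cells, whose markers had a median of 0.06, and it is high in red cell precursors. Red cell and neutrophil markers were lower in P4H-TM KO for 5 of 7 genes, with a median of −0.69, levels from 4.34 to 6.95 in WT and from 4.30 to 6.54 in P4H-TM KO, and 1 of 7 above the filter. Their part in the Tfrc difference was not tested.

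Ndrg1, a stress-responsive gene also known from myelin disease, had 11.73 in WT against 11.55 in P4H-TM KO, a difference of −0.18 or 1.13-fold lower. All 5 of its probe sets were above the filter and lower, with differences from −0.18 to −0.06. Ndrg1 is expressed in oligodendrocytes, and the 13 measured oligodendrocyte markers were all lower, with differences from −0.34 to −0.08 and levels from 7.46 to 14.67 in WT and from 7.23 to 14.59 in P4H-TM KO. The difference of Ndrg1 lay inside the range of those markers, and their part in it was not tested. Of the 21 members with several probe sets, every probe set was lower in 4 (Tfrc, Ndrg1, Slc2a1 and Higd1a) and every probe set was higher in 5 (Hk1, Gapdh, Slc16a1, Pfkfb3 and Mxi1). Over all 9012 genes with several probe sets, 18.3% had every probe set lower and 18.3% every probe set higher, so these counts were near those of all genes. The shares were not matched for the number of probe sets, which was 6 for Tfrc and 5 for Ndrg1 but 2 for Hk1.

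The mitophagy and stress genes were close to 0. Bnip3, a mitophagy receptor strongly induced by hypoxia and shown above with 5 promoter matches, had 11.94 in WT against 11.96 in P4H-TM KO. Higd1a, a mitochondrial protein of respiratory complexes, had 11.34 and 11.33, and its other probe sets differed by −0.05 and −0.06. Ddit4, an inhibitor of mTOR signaling, had 10.96 and 11.04, a difference of 0.08. Higd1a shares chromosome 9 with P4htm, as the 142nd measured gene from it. Bnip3l was not reported, since its 3 probe sets also carry the symbol of a pseudogene.

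Kdm3a, a histone demethylase induced by HIF, had 9.40 in WT against 9.45 in P4H-TM KO, a difference of 0.05. Mxi1, an antagonist of Myc, had 10.06 and 10.12, a difference of 0.06, and 0.14 on its other probe set. Neither gene exceeded the pooled SD on the probe set that represents it.

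The secreted factors and heme oxygenase showed no increase in P4H-TM KO on their brightest probe sets. Vegfa, the angiogenic growth factor, had 8.67 in WT against 8.58 in P4H-TM KO, a difference of −0.09, while a probe set below the filter differed by 0.19 and the average was 0.05, so its direction depends on the probe set. Adm, a vasodilator peptide, had 5.93 on both arrays, and its other probe set differed by 0.12. Hmox1, heme oxygenase, had 6.20 and 6.11, a difference of −0.09. Adm and Hmox1 were below the signal filter, and Epo, the hormone of red cell production, was not measured because no probe set carries its symbol here. Microglia and macrophage markers, which include cells that carry Hmox1, were higher for 6 and lower for 5 of 11 genes, with a median of 0.01.

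**Figure D3:**
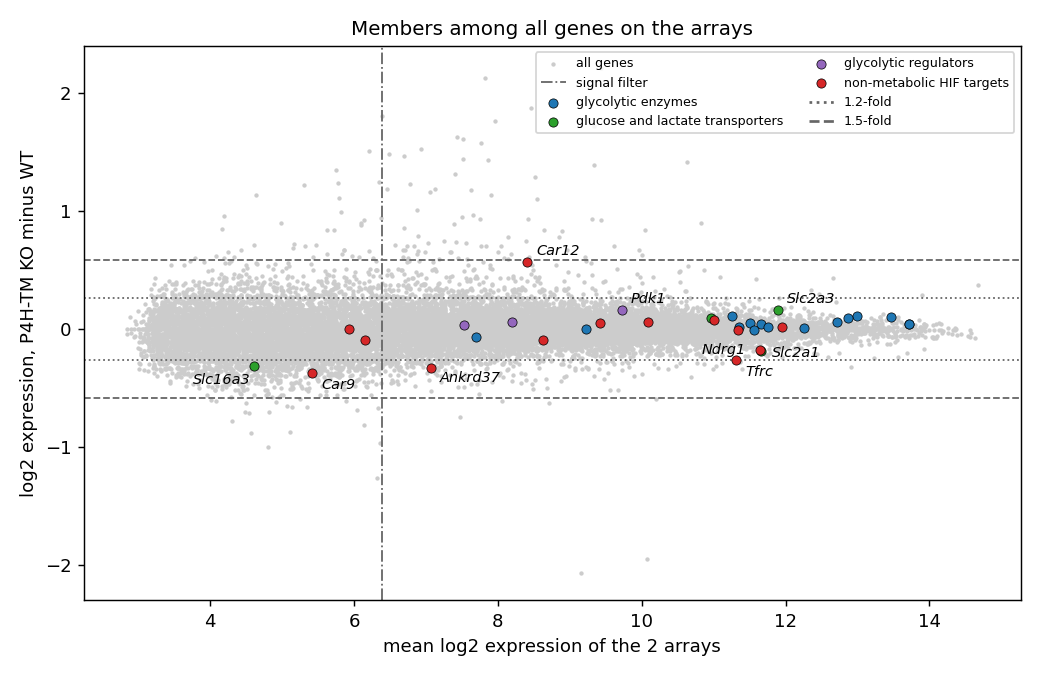
Difference in log2 expression, P4H-TM KO minus WT, against the mean log2 expression of the 2 arrays, for all 18194 genes (grey) and the 35 measured genes coloured by role group. Dotted and dashed horizontal lines mark 1.2-fold and 1.5-fold, and the vertical line marks the signal filter at 6.385. The colored points lie within the grey cloud, with Car12 at 0.57 just under the 1.5-fold line.

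The other genes of the HIF pathway and of glucose metabolism were described by lists written from general knowledge. Of 15 components of the HIF system 12 were higher, 2 lower and 1 equal, with a median of 0.02, and P4htm was the one past 1.2-fold. Of all genes, 46.0% were higher and 49.0% lower, without matching for signal. The HIFα genes Hif1a and Epas1 differed by 0.02 and 0.01, and Hif1a had 11.02 in WT against 11.04 in P4H-TM KO. Above the filter the highest were Hif1an, which encodes the asparaginyl hydroxylase that inhibits HIF, at 0.12, and Vhl, the ligase subunit that recognises hydroxylated HIFα, at 0.11, and the lowest after P4htm was Hif3a at −0.08. Probe sets of Hif1an spanned −0.33 to 0.16 and those of Hif3a −0.49 to 0.06. The 2 probe sets of Vhl were both higher, at 0.11 and 0.28, the latter past 1.2-fold. The genes of the HIF system other than P4htm therefore differed by no more than 0.12 on their brightest probe sets.

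Among 27 measured glycolysis and pyruvate genes outside the set, 11 were higher, 13 lower and 3 equal, with a median of 0.00. Of all genes, 46.0% were higher and 49.0% lower. In this list 0 genes were past 1.2-fold, against 4.12% of all genes higher and 4.91% lower. The highest above the filter were Pgam2, the muscle mutase, at 0.21 and Pdk3, a pyruvate dehydrogenase kinase, at 0.09. The lowest were Hkdc1, a hexokinase-like gene, at −0.21 and Eno3, the muscle enolase, at −0.18. This list had no shared direction.

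Among 29 measured other HIF targets, 17 were higher, 11 lower and 1 equal, with a median of 0.03, while 46.0% of all genes were higher. Against 4.12% of all genes, 2 of the 29 were at least 1.2-fold higher. These were Igfbp3, a binding protein of insulin-like growth factors, with 7.99 in WT against 8.42 in P4H-TM KO, and Stc1, a stanniocalcin hormone, with 6.36 and 6.68. The second probe set of Igfbp3 differed by 0.23 and that of Stc1 by −0.13. The lowest above the filter were the metallothionein gene Mt1 at −0.20 and Selenbp1 at −0.06. Both HIF target lists, inside and outside the set, thus had medians within 0.03 of the all-gene median.

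**Figure D4:**
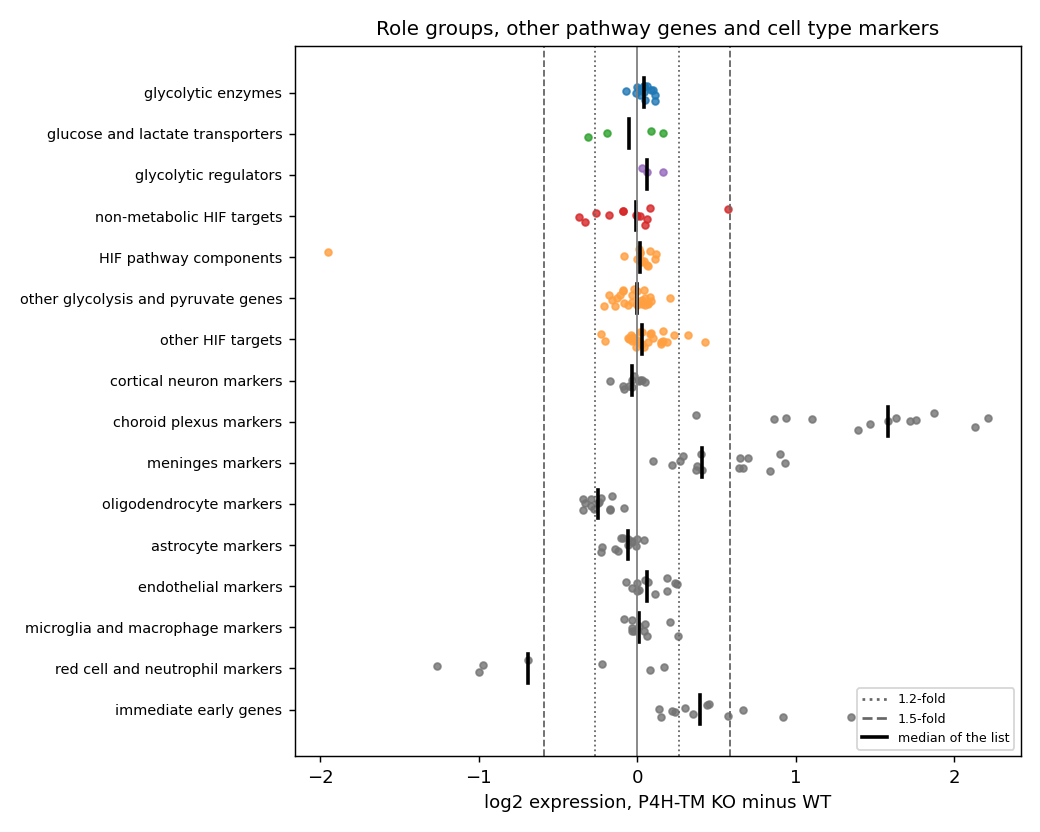
Difference in log2 expression, P4H-TM KO minus WT, with 1 point per measured gene, for the 4 role groups (colored), 3 lists of other pathway genes (orange) and 9 marker lists (grey), with a black bar at each median and lines at 1.2-fold and 1.5-fold. Points have a small vertical offset for legibility and no error bars, as there is 1 array per genotype. Role groups have medians from −0.05 to 0.06, while choroid plexus markers have a median of 1.58.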

How the data were processed

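RNA of cortical tissue, pooled from 4 mice per genotype, was measured on 1 array per genotype. The authors used the GeneChip Operating System for the scans and GenePattern for normalization, and per the labels RMA was used, version not given in the sources used here. The deposited values are log2 expression rounded to 2 decimals, from 2.69 to 14.91, and the array medians were 6.38 (WT) and 6.39 (P4H-TM KO). Normalization between arrays removes any difference shared by most genes, and rounding makes small differences coarse.

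Of 45101 probe sets, 34958 carry 1 gene symbol in the platform annotation, 932 several and 9211 none here. Of the 18194 symbols 18146 are in the RefSeq table of GRCm38.p6. Each gene was represented by its brightest probe set over both arrays, and array controls with a symbol (13) were kept. All 39 members, P4htm and the ends of each pathway list (2 highest and 2 lowest genes above the filter) were named. Marker lists are given by counts and medians, and Epas1 and Hif1a were named after their values were seen. Actb was planned as a control of RNA quality, but its differences were set beside those of Gapdh after they were seen. The Pcx controls were not in the plan. The members and lists were chosen with earlier results of these data known. The code was tested on simulated data. Alternatives comprised averaged probe sets, other probe sets, centred arrays, loess (span 0.3) and signal filters at the median and the 70th percentile (8.11). Software was matplotlib 3.10.9, statsmodels 0.14.6, pandas 2.3.3 and numpy 2.4.6 under Python 3.11.15. The number of arrays limits the precision.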

Additional observations from a re-analysis of the deposited data

How the results depend on the processing

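List medians were treated as stable within the error that the pooled SD between probe sets gives for a median, counts within 1.5 times and single genes within that SD. Of 118 alternatives to medians and counts 106 were stable, and of 105 alternatives to single genes 101 were. Part of these outcomes was fixed in advance, so the totals overstate what was tested. Centring shifts each gene by 0.01, as for Car12 from 0.57 to 0.56, against a tolerance of 0.101. Averaging tests only the 21 members with several probe sets, not the 14 with 1. Counts of 0 members at 1.5-fold stay 0 under either signal filter or a 2-fold threshold. All 15 enzymes pass the median filter, so their median of 0.04 is the same there. The exceptions among single genes, Pfkp, Pdk1, Vegfa and Car12, all arose with averaged probe sets. Counts of higher or lower values at any size under other settings were added after the data were seen.

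With probe sets averaged, the excess of the enzyme median over the non-metabolic targets was 0, the number of members at least 1.2-fold higher was 0, and the P4htm difference was −1.795, or −1.64 on its other probe set alone. Averaging also took the transporter median from −0.05 to 0.0016, which counted as stable although the sign changed. Without probe sets ending in _s_at or _x_at, 2 members were at least 1.2-fold higher, Car12 and, on a probe set below the filter, Slc2a3. Without members that also mark other cell types (Car12, Slc2a1, Slc16a1, Tfrc, Ndrg1, Aldoc and Hmox1) 0 members were 1.2-fold higher, and 4 non-metabolic targets were lower at any size. Both counts were fixed by the choice of genes removed, as Car12 was the only member 1.2-fold higher. With the signal filter at the median the transporter median was 0.09 and 1 member was at least 1.2-fold lower, and at the 70th percentile these were 0.09 and 0, because dim genes leave the set. The mean over all members was 0.0017 against a median of 0.03. No paired analysis was possible because each genotype has 1 array.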
